A study of Mus musculus with 73 samples.

Results

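Adrenals of male Znrf3 cKO mice were compared with those of male controls at 12 weeks, across all genes of the deposited table. The members were the 9 libraries of XY adrenals at this age, 4 of Znrf3 cKO (PRVL30, PRVL31, PRVL32 and PRVL33) and 5 of controls (PRVL23, PRVL24, PRVL25, PRVL28 and PRVL29), of 73 libraries in all. The series follows both sexes from 4 to 78 weeks to learn why loss of Znrf3 has different outcomes in male and female adrenals. In the mutants both alleles of Znrf3 were floxed around the exons for its RING domain and were deleted by Sf1-Cre, a driver for steroidogenic cells and their precursors, so macrophages, vessels and chromaffin cells are not its target. The controls carried the label WT and the same C57Bl/6 background, and the mTmG reporter was part of the breeding wherever no flow cytometry was done. RNA came from whole adrenals cleaned of fat, and no source used here says whether the libraries of a group came from different mice, and p-values cover only how libraries varied.

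ZNRF3 is a membrane ubiquitin ligase that removes Frizzled receptors from the cell surface and so dampens WNT signaling. The adrenal cortex makes aldosterone in its outer zona glomerulosa and glucocorticoids in its zona fasciculata, both from cholesterol, around a medulla of chromaffin cells that store catecholamines. Tissue macrophages take up dying cells and their lipid, digest them in lysosomes and export cholesterol through transporters driven by the nuclear receptor LXR. Genes of all these compartments can be read in a whole adrenal, but in bulk RNA fewer cells of a type and less RNA per cell cannot be told apart.

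Reads recovered from the steps of the RPKM values (reads per kilobase of transcript and M reads) ran from 18.4 to 39.1 M per library. PRVL23 was the shallowest, and the other 8 held at least 35.4 M. The first principal component separated the 2 groups and held 39.9% of the variance. The second held 16.7% and set the control PRVL28 apart, at 41.18 where the other libraries lay between -16.80 and 12.11. Sex checks matched the labels of the 9 libraries, with Xist at 0.0154 to 0.0601 RPKM and Ddx3y at 14.3 to 23.8. The deleted exons cannot be read from a gene-level value. Over the whole gene, Znrf3 stood at 8.66, 8.28, 9.95 and 10.99 RPKM in the 4 Znrf3 cKO libraries (here and below in the order PRVL30 to PRVL33) and at 5.03, 4.69, 6.74, 2.97 and 4.70 RPKM in the controls (in the order PRVL23, PRVL24, PRVL25, PRVL28, PRVL29). All mutant libraries lay above all controls (log2 fold change 0.87 ± 0.17 SE, adjusted p = 0.0171), the call was lost without PRVL32 (adjusted p = 0.0667), and such a value is no check of the deletion.

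Of 19229 genes tested with limma on log2(RPKM + 1), 807 were higher in Znrf3 cKO (4.2% of the genes tested) and 211 were lower (1.1%), at a Benjamini-Hochberg adjusted p under 0.05. The shares of 4.2% and 1.1% are the background for all counts of list and family members at 12 weeks in males below. Protein-coding genes made up 630 of the higher and 175 of the lower ones. The median log2 fold change was 0.82 among the higher genes, which reached 6.93, and -0.69 among the lower genes, which reached -2.29. At least 4-fold changes on this scale numbered 57 upward and 2 downward. Over all genes tested the median was -0.0027 and the central 90% lay between -0.46 and 0.58. Libraries of the 2 groups did not overlap for 1206 genes higher in Znrf3 cKO (6.27% of the genes tested) and for 657 lower (3.42%). The counts of called genes, 807 and 211, turned on single libraries. Without PRVL32 the calls fell to 351 higher and 23 lower, and without PRVL28 they rose to 1743 and 616.

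**Figure D1:**
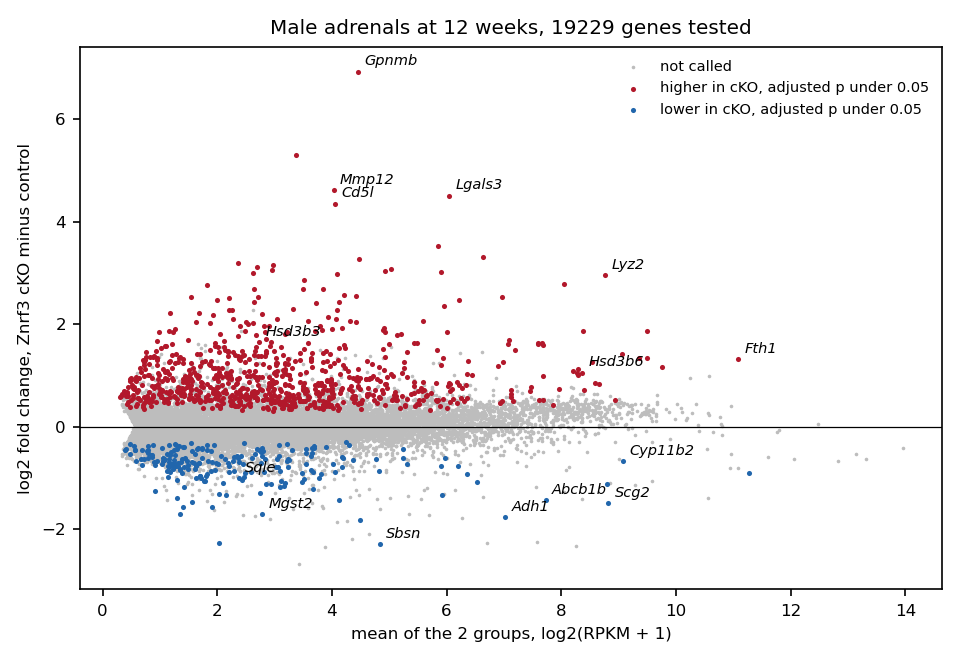
Each point is 1 of the 19229 genes tested in male adrenals at 12 weeks, with the mean log2(RPKM + 1) of the 2 groups on the x axis and the log2 fold change (Znrf3 cKO minus control) on the y axis. Colored points in this plot are the 807 genes higher and the 211 lower at an adjusted p under 0.05, and the upward changes reach 6.93 while the downward ones end at -2.29.

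Marker levels of 2 other compartments lay lower in Znrf3 cKO on average. The mean log2(RPKM + 1) of 9 adipocyte markers was 4.43, 4.22, 1.55 and 3.25 in the Znrf3 cKO libraries and 6.44, 3.40, 6.45, 4.73 and 4.54 in the controls, highest in PRVL23 and PRVL25 and lowest in PRVL32, with the groups overlapping. Adipoq, the adipocyte hormone adiponectin, lay between 0.432 and 49.2 RPKM in the mutants and between 18.03 and 149 RPKM in the controls. The mean of 16 chromaffin markers was 6.13, 4.82, 4.99 and 5.51 against 5.85, 6.52, 6.95, 6.79 and 5.70. With the adipocyte level as a covariate, an alternative chosen after seeing the data, 282 genes were called higher and 10 lower. With the chromaffin level limma called 46 higher and 0 lower, where 1187 were lower at an unadjusted p under 0.05. In these 9 libraries each marker level and the genotype cannot be fully told apart.

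The largest rises were of genes that macrophages express. Mmp12, an elastase of macrophages (chr9:7344381-7369499 of mm10), was at 80.1, 133, 109 and 20.5 RPKM in Znrf3 cKO and at 1.26, 2.50, 2.76, 0.557 and 3.37 RPKM in controls (log2 fold change 4.62 ± 0.51 SE, adjusted p = 0.00144). Lgals3, the galactoside-binding lectin galectin-3 (chr14:47367751-47386160), was at 344, 428, 444 and 115 RPKM against 11.3, 13.2, 14.2, 8.78 and 13.1 RPKM (log2 fold change 4.51 ± 0.36 SE, adjusted p = 0.000954). In both genes PRVL33 was the lowest mutant library and still lay several times above every control. Cd5l, a protein that macrophages secrete against their own apoptosis, was at 46.4, 156, 48.9 and 24.1 RPKM against 1.87, 0.489, 11.2, 0.272 and 1.14 RPKM (log2 fold change 4.36 ± 0.68 SE, adjusted p = 0.00604). Its spread was wider, with PRVL31 more than 3 times the next mutant library and the control PRVL25 far above the other controls, yet the groups did not overlap.

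The 2 lysozyme genes were called higher. Lyz1 was at 105, 314, 239 and 75.1 RPKM against 14.2, 19.5, 21.6, 18.02 and 18.8 RPKM (log2 fold change 3.03 ± 0.37 SE, adjusted p = 0.00201). Its neighbour Lyz2, the lysozyme of macrophages and one of the genes chosen after their values were seen, was at 742, 2173, 1713 and 582 RPKM against 123, 162, 163, 136 and 139.8 RPKM (log2 fold change 2.96 ± 0.35 SE, adjusted p = 0.00183). The 2 genes lie side by side on chromosome 10, and in each PRVL31 was highest and PRVL33 lowest of the mutant libraries. Of the 50-base windows of their transcripts, 16.1% and 15.4% occur in another gene, for each chiefly the other of the pair. Their reads may therefore be shared, and the rise of Lyz1, the lower of them, cannot be separated from that of Lyz2. Ear2, an RNase of eosinophils and macrophages, rose from 1.16 ± 0.993 to 18.3 ± 10.48 RPKM (means ± SD of 5 and 4 libraries, log2 fold change 3.12 ± 0.36 SE, adjusted p = 0.0017). Of the windows of Ear2 transcripts, 41.5% also occur in another gene, so its reads may be shared with Ear1 and Ear10, which were also called higher (1.91 and 2.22 on the log2 scale) and whose family was looked up after the values were seen.

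Further rises, again with PRVL33 lowest and PRVL31 highest, span lipid handling, sugar metabolism and signaling. Fabp5, a fatty acid carrier of macrophages and other cells, was at 89.4, 121, 108 and 44.4 RPKM against 20.8, 3.70, 15.2, 6.42 and 7.65 RPKM (log2 fold change 3.08 ± 0.44 SE, adjusted p = 0.004). Hk3, the hexokinase of myeloid cells, was at 15.8, 25.4, 21.7 and 6.48 RPKM against 1.22, 0.876, 1.54, 0.602 and 1.18 RPKM (log2 fold change 3.01 ± 0.32 SE, adjusted p = 0.00135). In Hk3 the 5 controls lay within 0.602 to 1.54 RPKM, far below the lowest mutant library. Atf3, a transcription factor induced by stress and by lipid loading, was at 22.1, 33.9, 32.3 and 7.61 RPKM against 1.32, 1.40, 1.72, 1.26 and 1.57 RPKM (log2 fold change 3.16 ± 0.35 SE, adjusted p = 0.00144). Anxa1, which restrains neutrophil entry, was at 66.1, 113, 79.8 and 26.5 RPKM against 6.36, 4.11, 8.16, 4.66 and 5.74 RPKM (log2 fold change 3.27 ± 0.35 SE, adjusted p = 0.00135). Its lowest mutant library was again PRVL33, still above the highest control. Clec4d, a C-type lectin receptor for mycobacterial lipid, was at 10.7, 27.0, 24.0 and 3.74 RPKM against 0.462, 0.672, 0.456, 0.559 and 0.513 RPKM (log2 fold change 3.198 ± 0.44 SE, adjusted p = 0.00307), and Anpep, the surface aminopeptidase CD13, at 40.2, 70.3, 63.7 and 19.6 RPKM against 5.12, 4.43, 6.50, 2.58 and 5.42 RPKM (log2 fold change 2.98 ± 0.35 SE, adjusted p = 0.00179). The remaining genes of these upper ranks were Gpnmb (6.93, adjusted p = 0.000954), Atp6v0d2 (5.30, adjusted p = 0.000954), Cd68 (3.52, adjusted p = 0.000995) and Trem2 (3.07, adjusted p = 0.000995). All 15 genes selected for the largest rises kept their call whichever library was left out.

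The 4 mutant libraries were not alike in these genes. PRVL33 was the lowest in 14 of the 15 and PRVL31 the highest in 13. Over the 807 genes called higher, PRVL33 was lowest in 582 (72.1%), against 23.0% of all genes tested, and PRVL31 was highest in 468 (58.0%), against 33.7%. These genes were called on the same libraries, so the shares are a description.

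**Figure D2:**
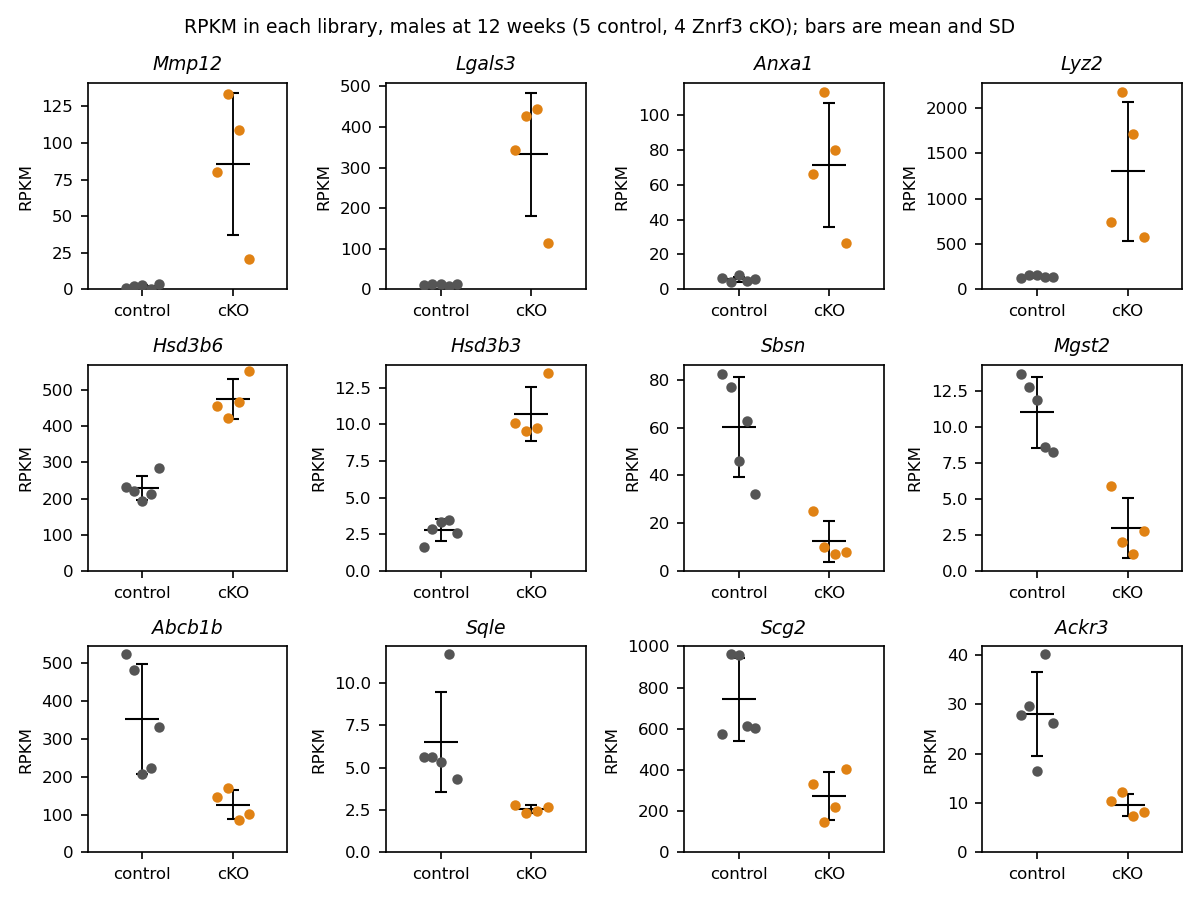
Points are the RPKM values of 12 named genes on linear axes from 0, 1 panel per gene, for the 5 control (grey) and the 4 Znrf3 cKO libraries (orange) of males at 12 weeks, in the order of their numbers. Bars are the mean and SD of each group. In Mmp12, Lgals3, Anxa1 and Lyz2 PRVL33 sits below the other mutant libraries and above every control.

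Lysosomal genes rose in part, from peptidases and glycosidases to membrane transporters. Of 80 tested in 4 lists, 27 rose and 0 fell in limma, beside 4.2% and 1.1% of all genes, where 2 were lower at an unadjusted p under 0.05 and 0 fell with precision weights. The count of rises depended on single libraries and was 12 without PRVL32, 17 without PRVL24 and 36 without PRVL28, and 1 gene fell without PRVL25 and 1 without PRVL28. Their median log2 fold change was 0.35. PRVL33 was the lowest mutant library in all 27. Among 14 cathepsins and related peptidases 7 rose, with a median of 1.02 over the list. Ctss, which trims the invariant chain of MHC class II, was at 562, 1228, 796 and 349 RPKM against 86.0, 88.7, 108, 90.0 and 102 RPKM (log2 fold change 2.79 ± 0.30 SE, adjusted p = 0.00135). Ctsd, the main aspartic protease of lysosomes, was at 551, 1013, 739 and 338 RPKM against 186, 142, 160.1, 185 and 160.3 RPKM (log2 fold change 1.87 ± 0.27 SE, adjusted p = 0.00376). In both, the controls stayed within a narrow band while the mutant libraries spread widely above it. Ctsl (2.47, adjusted p = 0.00878), Ctsz (1.505, adjusted p = 0.00493), Ctsb (1.08, adjusted p = 0.0277), Ctsa (1.04, adjusted p = 0.00533) and Lgmn (1.01, adjusted p = 0.0142) rose as well, and the calls of Lgmn and Ctsb were lost on leaving out 1 of 9 (highest adjusted p = 0.0602, without PRVL32) and 6 of 9 (highest adjusted p = 0.103, without PRVL32) libraries, while Ctsf (-0.03) and Ctso (-0.06) did not pass the test.

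Of 32 glycosidases, sulfatases, lipases and their helpers, 12 rose (2 without PRVL32, 6 without PRVL24), with a list median of 0.27. Psap, the precursor of the saposins that present sphingolipids to their hydrolases, was at 959, 1701, 1359 and 689.7 RPKM against 469, 429, 419.5, 473 and 411 RPKM (log2 fold change 1.34 ± 0.23 SE, adjusted p = 0.00972). Acp5, the tartrate-resistant acid phosphatase of osteoclasts and macrophages, rose from 14.4 ± 6.28 to 56.6 ± 23.9 RPKM (log2 fold change 1.90 ± 0.36 SE, adjusted p = 0.0159), a call lost without PRVL32 (adjusted p = 0.0616). Lipa, which frees cholesterol from the esters of engulfed lipoproteins, rose from 37.0 ± 2.96 to 92.6 ± 39.7 RPKM (log2 fold change 1.20 ± 0.24 SE, adjusted p = 0.0197), a call lost without PRVL24 (adjusted p = 0.0517) and PRVL32 (adjusted p = 0.0776). Gusb (0.93, adjusted p = 0.0157) and Dnase2a (1.01, adjusted p = 0.00783), which digest glycosaminoglycans and the DNA of engulfed cells, also rose, and Gusb lost its call without PRVL32 (adjusted p = 0.065). The acid beta-galactosidase gene Glb1, the enzyme behind the senescence stain, was at 12.2 ± 1.23 RPKM against 10.8 ± 1.27 RPKM and did not pass the test (log2 fold change 0.17 ± 0.10 SE, adjusted p = 0.379).

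Of 16 lysosomal membrane proteins and transporters 6 rose (3 without PRVL24, PRVL30, PRVL31 or PRVL32), among them Laptm5 (1.80, adjusted p = 0.00237), Slc11a1 (2.06, adjusted p = 0.00243), an iron and manganese carrier of phagosomes, and Npc2 (0.80, adjusted p = 0.0253), which hands cholesterol to the membrane. Npc2 lost its call without PRVL24 (adjusted p = 0.0646), PRVL30 (adjusted p = 0.051), PRVL31 (adjusted p = 0.0709) and PRVL32 (adjusted p = 0.0967). Of 18 subunits of the proton pump only Atp6v0d2 and Tcirg1 (0.96, adjusted p = 0.00493), both abundant in osteoclasts, passed the test (6 subunits without PRVL28, 4 without PRVL33), and the list median was 0.32. Mcoln1, the ubiquitous lysosomal calcium channel, was at 5.58 against 6.04 RPKM and did not pass (-0.09, adjusted p = 0.593). Its relatives Mcoln2 (1.18, 2.40, 2.03 and 0.837 RPKM against 0.0173, 0.0478, 0.131, 0.0187 and 0.0499) and Mcoln3 (0.887, 2.85, 2.77 and 0.437 RPKM against 0, 0.00756, 0.0467, 0 and 0.0236), chosen after their values were seen, rose (1.27, adjusted p = 0.00296, and 1.30, adjusted p = 0.0235). Mcoln3 lost its call without PRVL23 (adjusted p = 0.0535), PRVL24 (adjusted p = 0.0565), PRVL31 (adjusted p = 0.0626) and PRVL32 (adjusted p = 0.0785).

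MiT transcription factors (Mitf, Tfeb, Tfe3 and Tfec) switch on lysosomal genes, in part through the sequence GTCACGTG. Tfec, the member largely limited to myeloid cells, was at 0.731, 1.49, 0.950 and 0.532 RPKM against 0.112, 0.108, 0.150, 0.0550 and 0.147 RPKM (log2 fold change 0.77 ± 0.14 SE, adjusted p = 0.0107). Its levels were low throughout, but the groups did not overlap. Mitf (0.30, adjusted p = 0.128), Tfeb (0.33, adjusted p = 0.185) and Tfe3 (0.08, adjusted p = 0.569) did not pass the test. Gpr137b, a lysosomal membrane protein (1.55, adjusted p = 0.00237), and Fnip2, a folliculin partner that acts on the cytosolic retention of these factors (1.22, adjusted p = 0.0119), rose, and both were chosen after their values were seen. Fnip2 lost its call without PRVL32 (adjusted p = 0.0505).

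The motif GTCACGTG was searched in RefSeq promoter windows of GRCm38.p6, from 250 bases before to 50 after a gene start, on both strands (CACGTGAC on the other), and a match is a description, not a binding site. It occurs in 5 of 22 lysosomal genes called higher that have a window (22.7%), in 8 of 41 that were not called (19.5%), and in 689 of 27025 genes overall (2.55%). Both lysosomal shares lay above that of all genes, and no test was made of them. The 5 promoters among the genes that rose are shown because they let the motif be seen in its setting, 100 bases each, 5′ to 3′ on the strand of the gene, with the motif in capitals. They belong to Ctsa (chr2:164833713-164833812, plus strand, printed motif at -14 from the RefSeq gene start), Ctsd (chr7:142387872-142387971, minus strand, at -98), Lgmn (chr12:102439090-102439189, minus strand, at -51), Gla (chrX:134601148-134601247, minus strand, at -196) and Cln3 (chr7:126583306-126583405, minus strand, at -123).
Ctsa: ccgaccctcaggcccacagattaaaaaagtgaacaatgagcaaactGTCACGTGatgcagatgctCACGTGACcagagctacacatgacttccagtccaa
Ctsd: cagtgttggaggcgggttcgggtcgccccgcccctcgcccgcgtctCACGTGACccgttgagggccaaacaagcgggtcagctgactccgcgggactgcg
Lgmn: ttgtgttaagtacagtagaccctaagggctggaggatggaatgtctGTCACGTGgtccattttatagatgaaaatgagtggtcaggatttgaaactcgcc
Gla: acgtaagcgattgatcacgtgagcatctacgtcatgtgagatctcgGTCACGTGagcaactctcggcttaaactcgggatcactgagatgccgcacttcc
Cln3: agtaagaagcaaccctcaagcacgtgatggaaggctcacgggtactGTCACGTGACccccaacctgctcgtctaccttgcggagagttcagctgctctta
Ctsa holds the motif once on each strand, and in Cln3 the 2 matches overlap as 1 palindrome. The promoter window of Ctsd also holds 2 matches, and only 1 of them lies in the printed stretch. Ctsa (54.4, 63.4, 61.4 and 34.7 RPKM against 26.3, 23.3, 25.5, 24.8 and 23.9 RPKM) rose by 1.04 on the log2 scale, Lgmn by 1.01, Gla, the alpha-galactosidase, by 1.01 (adjusted p = 0.0219), and Cln3, a lysosomal membrane protein lost in a childhood storage disease, by 0.40 (adjusted p = 0.0484). Leaving out single libraries, Gla lost its call in 3 of 9 (highest adjusted p = 0.0869, without PRVL32) and Cln3 in 6 of 9 (highest adjusted p = 0.169, without PRVL32).

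**Figure D3:**
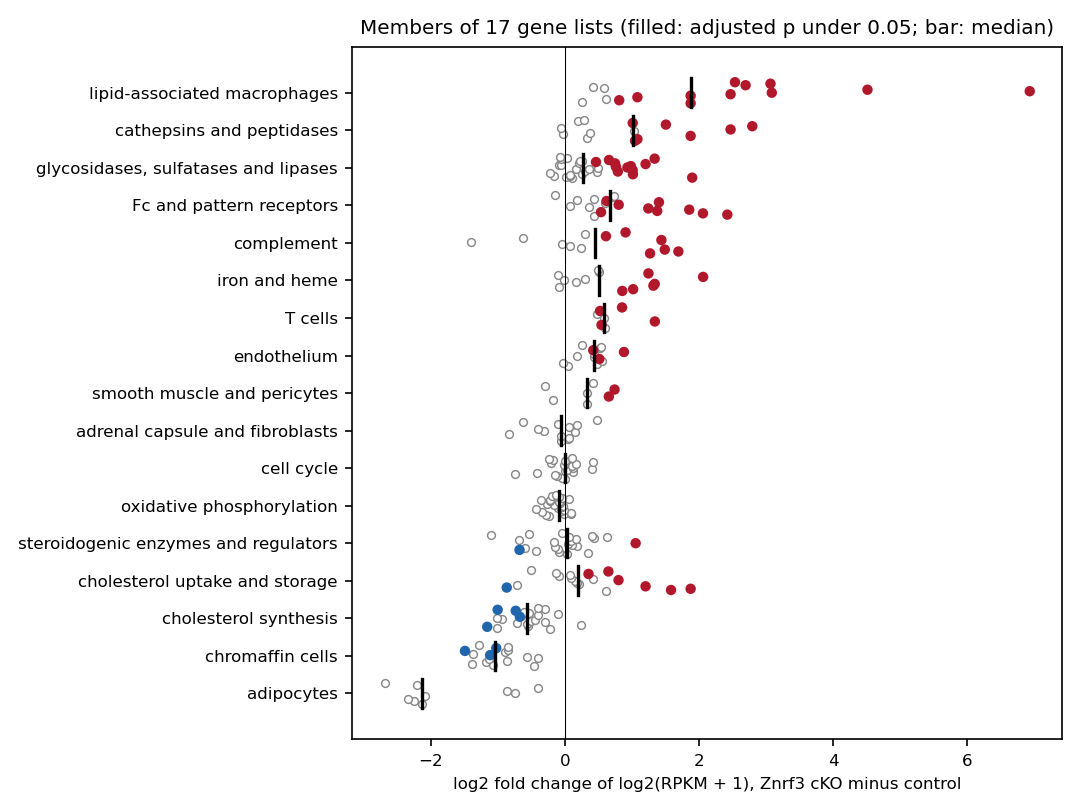
Each point is the log2 fold change (x axis, Znrf3 cKO minus control, males at 12 weeks) of 1 gene in 1 of 17 lists (y axis), filled where the adjusted p was under 0.05, and a black bar marks the median of a list. Filled points of the lipid-associated macrophage, peptidase and glycosidase lists all lie right of 0, and those of cholesterol synthesis and chromaffin cells all lie left of it.

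Surface receptors of phagocytes rose in part. Among 18 Fc and pattern recognition receptors and their adaptors 9 rose (5 without PRVL32), beside 4.2% of all genes, with a median of 0.67. Clec7a (dectin-1), which binds fungal glucans, was at 28.6, 35.7, 25.9 and 26.0 RPKM against 4.63, 4.56, 8.01, 2.40 and 4.56 RPKM (log2 fold change 2.42 ± 0.23 SE, adjusted p = 0.000995). Fcer1g, the signaling chain shared by Fc receptors, was at 96.9, 123, 121 and 57.0 RPKM against 21.8, 19.0, 18.9, 25.5 and 26.3 RPKM (log2 fold change 2.06 ± 0.22 SE, adjusted p = 0.00135). The mutant libraries of Clec7a lay close together, including PRVL33, unlike those of Fcer1g. Fcgr3 (1.85, adjusted p = 0.00366), Fcgr2b (1.38, adjusted p = 0.00269) and Fcgr4 (1.24, adjusted p = 0.0163) rose, the last losing its call without PRVL32 (adjusted p = 0.0513), while the toll-like receptors Tlr3 (0.18), Tlr4 (0.43) and Tlr9 (-0.14) did not pass.

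Complement genes rose in part. The 3 chains of C1q, made by resident macrophages, rose: C1qa was at 188, 224, 204 and 166 RPKM against 81.2, 69.1, 98.1, 85.9 and 69.9 (1.27, adjusted p = 0.00131), C1qb had a log2 fold change of 1.69, adjusted p = 0.000995, and C1qc of 1.49, adjusted p = 0.00135. The receptor gene C3ar1 rose as well (1.44, adjusted p = 0.00878), as did C5ar1 (0.61, adjusted p = 0.0389) and Cfp (0.90, adjusted p = 0.00969). In all 6 of 12 rose, beside 4.2% of all genes. The call of C5ar1 was lost on leaving out 7 of 9 (highest adjusted p = 0.137, without PRVL32) libraries. C3 itself, which adipocytes, fibroblasts and macrophages make, was at 17.1, 42.1, 7.78 and 2.88 RPKM against 82.0, 17.7, 60.3, 14.9 and 28.2 RPKM and did not pass (-1.40, adjusted p = 0.264). Of 11 markers of resident macrophages 5 rose, among them the C1q chains and Fcgr1 (0.54, adjusted p = 0.026), whereas Lyve1 (-0.88, adjusted p = 0.0686), Cd163 (-0.32, adjusted p = 0.322) and Mrc1 (0.35, adjusted p = 0.281), markers of perivascular and scavenging macrophages, did not pass. Leaving out single libraries cost Fcgr1 its call in 5 of 9 (highest adjusted p = 0.069, without PRVL24). With precision weights 5 of the 11 resident macrophage markers were called higher and 1 was called lower. The list of lipid-associated macrophages, which holds Trem2, Spp1 and Apoe, had 11 of 15 members higher (4.2% of all genes were) with a median of 1.87. It had 7 without PRVL32 and 12 without PRVL33.

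Chemokines and growth factor receptors rose for fewer members. Of 20 chemokines and receptors 6 rose, beside 4.2% of all genes, with a median of 0.49. The count was 1 without PRVL32, 3 without PRVL23 or PRVL31 and 9 without PRVL33. Ccl3, which draws monocytes and lymphocytes, was at 5.49, 8.69, 8.73 and 1.91 RPKM against 0.667, 1.54, 1.55, 0.724 and 1.11 RPKM (log2 fold change 1.64 ± 0.33 SE, adjusted p = 0.0198), a call lost without PRVL23 (adjusted p = 0.0512), PRVL31 (adjusted p = 0.0616) and PRVL32 (adjusted p = 0.0731). Ccl6 (1.63, adjusted p = 0.0169) and Ccl5 (1.32, adjusted p = 0.0128), a T cell product as well, rose, and each lost its call without PRVL32 (adjusted p = 0.0669 and 0.0555), and Ccl4 rose by 0.95 (adjusted p = 0.0295), a call lost on leaving out 5 of 9 (highest adjusted p = 0.1, without PRVL32). The monocyte attractant Ccl2 did not pass, at 4.15, 3.13, 5.26 and 0.691 RPKM against 2.10, 1.64, 1.12, 1.27 and 1.22 RPKM (log2 fold change 0.66 ± 0.33 SE, adjusted p = 0.258), with PRVL33 below every control. Csf2rb2, the beta chain of an IL-3 receptor, was at 10.4 ± 7.07 against 1.03 ± 0.287 RPKM (2.27, adjusted p = 0.00769). Csf2rb, the beta chain shared by the receptors for GM-CSF, IL-3 and IL-5, was at 7.18 ± 4.67 against 1.28 ± 0.412 RPKM (1.67, adjusted p = 0.022). The call of Csf2rb was lost without PRVL24 (adjusted p = 0.0583) and PRVL32 (adjusted p = 0.0856). Shares of 18.9% and 12.3% of their windows occur in another gene. Neither ligand of the macrophage growth factor receptor passed, Csf1 being at 10.8 against 8.82 RPKM (0.26, adjusted p = 0.181) and Il34 at 11.8 against 11.6 RPKM (0.01, adjusted p = 0.958), nor did their receptor gene Csf1r (0.64, adjusted p = 0.0805).

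Iron and heme genes rose in 6 of 13 cases (3 without PRVL23, PRVL24, PRVL30, PRVL31 or PRVL32), beside 4.2% of all genes, with a median of 0.51. Blvrb, which reduces biliverdin and flavins, was at 10.8, 13.5, 16.4 and 9.80 RPKM against 5.29, 5.58, 5.73, 6.85 and 4.79 RPKM (log2 fold change 1.02 ± 0.15 SE, adjusted p = 0.00384), and Blvra rose similarly (0.85, adjusted p = 0.00455). Both ferritin chains rose, Fth1 from 1346 ± 255 to 3511 ± 1238 RPKM (1.32, adjusted p = 0.0213) and Ftl1 (1.34, adjusted p = 0.0242), and so did the iron exporter Slc40a1 (1.24, adjusted p = 0.0285). Fth1 lost its call without 5 of 9 single libraries (highest adjusted p = 0.0847, without PRVL32), Ftl1 on leaving out 5 of 9 (highest adjusted p = 0.0939, without PRVL32) and Slc40a1 on leaving out 5 of 9 (highest adjusted p = 0.0952, without PRVL32). Hmox1, which opens heme, did not pass (0.17, adjusted p = 0.689).

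T cell and NK cell markers rose in part, at low levels. Of 7 T cell markers 4 rose, beside 4.2% of all genes, and all 7 had an unadjusted p under 0.05. Cd4 was at 3.71, 4.58, 2.42 and 1.55 RPKM against 0.521, 0.410, 1.11, 0.351 and 0.400 RPKM (log2 fold change 1.34 ± 0.22 SE, adjusted p = 0.00854), the T cell kinase Lck at 2.59, 2.78, 2.65 and 2.61 RPKM against 1.51, 1.48, 1.61, 1.55 and 1.58 RPKM (log2 fold change 0.52 ± 0.07 SE, adjusted p = 0.003), and the receptor constant region Trac rose by 0.85 (adjusted p = 0.00969). In 1 fit of all groups together Lck and Trac lost their calls (adjusted p = 0.0978 and 0.0659). Both groups clustered tightly in Lck, with PRVL33 level with the other mutant libraries. Among NK cell markers Nkg7 was at 3.85, 5.85, 5.16 and 4.70 RPKM against 2.24, 1.84, 2.45, 1.21 and 1.46 RPKM (log2 fold change 1.06 ± 0.15 SE, adjusted p = 0.0038), while Ncr1 passed (0.40, adjusted p = 0.0484) but lost its call without 8 of 9 single libraries (highest adjusted p = 0.151, without PRVL32) and in that fit (adjusted p = 0.221). Cd4 is also carried by some myeloid cells. The monocyte marker Ly6c2, which has a near-identical neighbour and is uncertain for that, was at 20.6, 22.7, 23.1 and 21.7 RPKM against 12.8, 14.96, 10.6, 13.9 and 12.7 RPKM (log2 fold change 0.73 ± 0.10 SE, adjusted p = 0.00314), and the neutrophil receptor Csf3r rose by 0.95 (adjusted p = 0.00231). Ly6c2 was the only call among 4 monocyte markers, of which 3 had a positive log2 fold change and the lowest was -0.42. Csf3r was the only call among 3 neutrophil markers, all 3 with a positive log2 fold change. No B cell marker of 4 (1 with an unadjusted p under 0.05 in limma) and no mast cell marker of 5 (0) passed, also with precision weights.

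Few genes of antigen presentation rose. H2-D1, a classical MHC class I chain whose reads may be split with similar chains, was at 463, 473, 439 and 403 RPKM against 215, 169, 244, 268 and 187 RPKM (log2 fold change 1.05 ± 0.14 SE, adjusted p = 0.00314), and the immunoproteasome subunit Psmb8 rose by 0.71 (adjusted p = 0.00827, and 0.257 in 1 fit of all groups together), 2 of 9 in their list. H2-K1, the other classical chain (0.29, adjusted p = 0.185), and B2m, their common light chain (0.13, adjusted p = 0.732), did not pass. Of 10 MHC class II genes all had a positive log2 fold change (0.12 to 0.58), and only H2-DMb2 passed (0.58, adjusted p = 0.0468), a call lost without 7 of 9 single libraries (highest adjusted p = 0.162, without PRVL32) and in 1 fit of all groups together (adjusted p = 0.213). Of 18 interferon-responsive genes 2 rose, Oas1a (0.71, adjusted p = 0.0213) and Irf7 (0.41, adjusted p = 0.041), with call losses without 4 and 7 of the 9 libraries and both in 1 fit of all groups together (adjusted p = 0.221 and 0.605), whereas Isg15, Ifit1 and Mx1 ranged from -0.04 to 0.42 and did not pass.

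**Figure D4:**
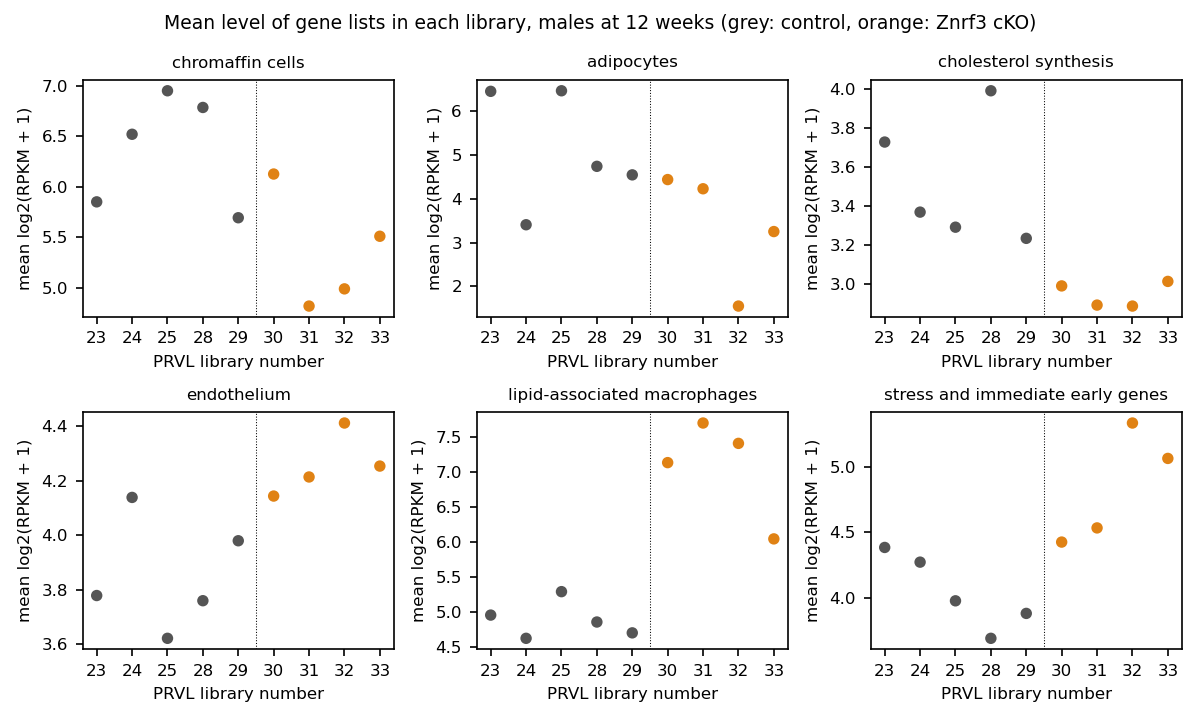
Points are the mean log2(RPKM + 1) of a list in each library at 12 weeks, 1 panel for each of 6 lists, with the 5 controls and the 4 Znrf3 cKO libraries on the x axis. Lipid-associated macrophage genes separate the groups (6.04 to 7.70 against 4.62 to 5.29), and adipocyte markers overlap.

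Of 23 genes of cortical steroid synthesis and its regulators 1 rose and 1 fell, beside 4.2% and 1.1% of all genes, with a median of 0.02. The zona glomerulosa list had the same 2 calls among 12 genes. Star, which brings cholesterol into mitochondria, was at 1152, 1698, 1471 and 2035 RPKM against 2759, 2779, 981, 3828 and 2072 RPKM and did not pass (log2 fold change -0.54 ± 0.36 SE, adjusted p = 0.405), and neither did Cyp11a1 (-0.09, adjusted p = 0.86), Cyp21a1 (-0.11, adjusted p = 0.797) or Cyp11b1 (-0.43, adjusted p = 0.25). The control PRVL25 was the lowest library for Star and Cyp11a1. Cyp11b2, the aldosterone synthase of the zona glomerulosa, fell from 684 ± 119 to 424 ± 59.7 RPKM (log2 fold change -0.68 ± 0.16 SE, adjusted p = 0.0358). PRVL31, at 514 RPKM, overlapped the lowest control, PRVL25 at 512, and the call was lost without 6 of 9 single libraries (highest adjusted p = 0.13, without PRVL32) and in 1 fit of all groups together (adjusted p = 0.369). The steroidogenic regulator Nr5a1, which encodes SF1, was at 172 ± 53.3 against 111 ± 28.1 RPKM (0.62, adjusted p = 0.151), and the ACTH receptor gene Mc2r at 151 ± 11.5 against 142 ± 9.57 RPKM (0.09, adjusted p = 0.63). Markers of the X zone, an inner zone that regresses in male mice at puberty, were low in all 9 libraries, Akr1c18 at 0.0231 to 3.44 against 0.128 to 5.00 RPKM and Pik3c2g listed at 0 in 8 of 9.

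The single gene of the steroid synthesis list that rose was Hsd3b6, the 3-beta-hydroxysteroid dehydrogenase of the zona glomerulosa (chr3:98805504-98814443). It was at 456, 422, 467 and 553 RPKM against 233, 222, 193, 213 and 283 RPKM (log2 fold change 1.05 ± 0.13 SE, adjusted p = 0.00237). All mutant libraries lay above all controls, here with PRVL33 the highest. Hsd3b1, the main cortical form, was at 5179.6, 5883, 5588 and 6327 RPKM against 5404, 6045, 4097, 6477 and 6105 RPKM and did not pass (log2 fold change 0.04 ± 0.19 SE, adjusted p = 0.918). Both genes lie in a cluster on chromosome 3, and its other members were read after these values were seen.

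Within that cluster Hsd3b2 was at 21.6, 19.9, 20.8 and 27.8 RPKM against 6.24, 9.93, 9.57, 9.75 and 7.79 RPKM (log2 fold change 1.29 ± 0.15 SE, adjusted p = 0.00151), and Hsd3b3 at 10.1, 9.52, 9.75 and 13.5 RPKM against 1.599, 2.89, 3.34, 3.46 and 2.56 RPKM (log2 fold change 1.65 ± 0.17 SE, adjusted p = 0.00112). Hsd3b4 rose in the same way (log2 fold change 1.41 ± 0.18 SE, adjusted p = 0.00263). So 4 of 6 tested members were called higher and none lower, beside 4.2% and 1.1% of all genes, at levels from 7.93 to 474 RPKM. The libraries did not overlap in any of the 4, PRVL33 was the highest in each, and each kept its call whichever library was left out. Hsd3b6 missed it in the fit of all groups together (adjusted p = 0.0827). Hsd3b5 did not pass (0.56, adjusted p = 0.0716). The genes share transcript sequence, with 15.6% of the 50-base windows of Hsd3b6 also in another gene, 6.70% for Hsd3b3, 25.1% for Hsd3b2, 4.90% for Hsd3b1 and every window for Hsd3b4, so the value of Hsd3b4 cannot be separated from its copies. In males at 6 weeks Hsd3b3 had fallen in Znrf3 cKO (-1.14, adjusted p = 0.0163), from 4.57 ± 1.76 to 1.44 ± 0.380 RPKM, and the knockout effect at 12 weeks differed from it (difference 2.79, adjusted p = 0.000379). Hsd3b4 showed the same turn (difference 2.46, adjusted p = 0.000937), and Hsd3b2 a difference without a call at 6 weeks (1.63, adjusted p = 0.0139).

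Of 22 genes that synthesize cholesterol 4 fell (1.1% of all genes did) and none rose, 21 had a negative log2 fold change, and the median was -0.56. Sqle, the squalene epoxidase, was at 2.82, 2.35, 2.43 and 2.69 RPKM against 5.64, 5.62, 5.31, 11.7 and 4.31 RPKM (log2 fold change -1.004 ± 0.21 SE, adjusted p = 0.0261), and Lss, which closes the sterol ring, at 3.11, 2.72, 2.72 and 2.71 RPKM against 5.72, 4.98, 3.97, 6.95 and 4.22 RPKM (log2 fold change -0.67 ± 0.14 SE, adjusted p = 0.0199). In Sqle and Lss the 4 mutant libraries lay within a narrow range below all controls, while PRVL28 was the highest control for Sqle and Lss. Sc5d passed too (-0.73, adjusted p = 0.0353), and Cyp51 (-1.01, adjusted p = 0.0674), Idi1 (-0.94, adjusted p = 0.0813) and Hmgcs1 (-0.50, adjusted p = 0.107) did not. The mean log2(RPKM + 1) of the list was 2.99, 2.89, 2.89 and 3.02 in Znrf3 cKO and 3.73, 3.37, 3.29, 3.99 and 3.23 in controls, without overlap.

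The calls of these falls depended on single libraries. With each library left out in turn, log2 fold changes ran from -1.11 to -0.80 for Sqle, -0.75 to -0.58 for Lss and -0.86 to -0.64 for Sc5d. Single calls were lost without 5 of 9 single libraries (highest adjusted p = 0.0904, without PRVL32) for Sqle, 3 of 9 single libraries (highest adjusted p = 0.0743, without PRVL32) for Lss and 7 of 9 single libraries (highest adjusted p = 0.0899, without PRVL32) for Sc5d. Without PRVL31 or PRVL32 no member of the list passed in limma, where 15 had an unadjusted p under 0.05 with all libraries, and without PRVL28 7 did. With library weights, which gave PRVL28 the lowest weight (0.302), 12 fell and 1 rose, and after rescaling to a common sum 10 fell. The feedback gene Insig1 was at 13.1 against 29.6 RPKM (-1.01, adjusted p = 0.0748).

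Genes of cholesterol export and transport rose in part. Of 18 genes of uptake, storage and export 6 rose and 1 fell, beside 4.2% and 1.1% of all genes, with a median of 0.19. Without PRVL32 1 rose and 0 fell, and without PRVL24 3 rose and 0 fell. Apoe, the lipid carrier that macrophages and adrenocortical cells secrete, was at 1296, 1680.3, 1517 and 876 RPKM against 231, 327, 606, 565 and 218 RPKM (log2 fold change 1.87 ± 0.34 SE, adjusted p = 0.0126), a call lost without PRVL32 (adjusted p = 0.0532). Abcg1, a cholesterol exporter and LXR target, was at 10.2, 20.4, 12.9 and 6.43 RPKM against 3.17, 3.82, 4.29, 2.07 and 2.94 RPKM (log2 fold change 1.58 ± 0.27 SE, adjusted p = 0.00964). Its mutant libraries followed the order seen in the macrophage genes, with PRVL31 highest and PRVL33 lowest. Pltp, a phospholipid transfer protein and LXR target, rose from 6.29 ± 2.87 to 26.5 ± 12.3 RPKM (1.89, adjusted p = 0.00972), and Nr1h3, which encodes LXR alpha, from 9.58 ± 0.976 to 15.6 ± 1.97 RPKM (0.65, adjusted p = 0.00712). Stard5 (0.65, adjusted p = 0.019), a cholesterol carrier, lost its call without PRVL32 (adjusted p = 0.0793). Abca1 (0.61, adjusted p = 0.281), Soat1 (0.08, adjusted p = 0.758), which esterifies cholesterol, and the HDL receptor gene Scarb1 (-0.09, adjusted p = 0.918) did not pass, and Scarb1 ranged from 93.4 to 449.5 RPKM among the controls alone.

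The falls with the largest size included Sbsn, Ackr3 and Mgst2. Sbsn, which encodes suprabasin, a secreted protein of stratified epithelia, was at 25.2, 9.92, 6.94 and 7.76 RPKM against 82.5, 76.9, 46.01, 62.7 and 32.4 RPKM (log2 fold change -2.29 ± 0.37 SE, adjusted p = 0.00749). Ackr3, a scavenger receptor of the chemokine CXCL12, was at 10.47, 12.2, 7.31 and 8.20 RPKM against 27.9, 29.6, 16.5, 40.2 and 26.2 RPKM (log2 fold change -1.43 ± 0.23 SE, adjusted p = 0.0062). Mgst2, a microsomal glutathione transferase that also makes leukotriene, was at 5.90, 2.02, 1.16 and 2.79 RPKM against 13.7, 12.8, 11.8, 8.57 and 8.26 RPKM (log2 fold change -1.71 ± 0.29 SE, adjusted p = 0.00969). In each of the 3 the groups did not overlap, and the calls held whichever library was left out. PRVL30 was the highest mutant library in Sbsn and Mgst2, and PRVL31 in Ackr3.

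Alcohol dehydrogenases of the class that oxidizes retinol fell. Adh7 was at 1.99, 2.13, 2.09 and 1.42 RPKM against 5.79, 4.22, 3.52, 7.64 and 5.70 RPKM (log2 fold change -1.11 ± 0.18 SE, adjusted p = 0.00706), and held its call without any single library but lost it in 1 fit of all groups together (adjusted p = 0.18). Its neighbour Adh1 fell from 254 ± 143 to 65.4 ± 13.5 RPKM (log2 fold change -1.77 ± 0.38 SE, adjusted p = 0.0268), a call lost without PRVL24 (adjusted p = 0.0569), PRVL31 (adjusted p = 0.08) and PRVL32 (adjusted p = 0.0977). The controls of Adh1 ranged from 102 to 444 RPKM, highest in PRVL23, and fat tissue also expresses this gene. Adh5, the ubiquitous form, was at 29.2 against 31.6 RPKM (-0.11, adjusted p = 0.519). On the same route Aldh1a1, which makes retinoic acid from retinal, rose (1.34, adjusted p = 0.0433) with losses of the call without 6 of 9 single libraries (highest adjusted p = 0.144, without PRVL32) and in the fit of all groups (adjusted p = 0.0534), and Dhrs3, which returns retinal to retinol, was at 27.6, 32.1, 27.8 and 20.1 RPKM against 10.54, 10.4, 13.8, 9.78 and 10.8 RPKM (log2 fold change 1.20 ± 0.14 SE, adjusted p = 0.00176).

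In a block of 3 transporter genes on chromosome 5 all were called lower. Abcb1b (chr5:8798147-8866315), a multidrug exporter of steroidogenic cells in the mouse adrenal, was at 146, 169.7, 85.6 and 102 RPKM against 523, 481, 206, 223 and 331 RPKM (log2 fold change -1.43 ± 0.32 SE, adjusted p = 0.0293). Abcb1a (chr5:8660077-8748575) was at 39.8, 49.1, 25.6 and 30.4 RPKM against 140.5, 132, 60.0, 61.6 and 88.5 RPKM (log2 fold change -1.34 ± 0.29 SE, adjusted p = 0.0271). Both had the same order of libraries, with PRVL31 highest in Znrf3 cKO and PRVL23 and PRVL24 highest in controls. Abcb4 (chr5:8893717-8959231), the phospholipid exporter of bile, read after its neighbours' values were seen, went from 5.68 ± 1.79 to 2.61 ± 0.574 RPKM (log2 fold change -0.86 ± 0.20 SE, adjusted p = 0.034). The share of 50-base windows found in another gene was 17.6% for Abcb1a, 11.6% for Abcb1b and 2.80% for Abcb4. Abcb1a and Abcb1b share these windows chiefly with each other, so their reads may be shared and their common order of libraries is not independent. The calls were lost without 6 of 9 single libraries (highest adjusted p = 0.108, without PRVL32) for Abcb1b, 5 of 9 single libraries (highest adjusted p = 0.102, without PRVL32) for Abcb1a and 6 of 9 single libraries (highest adjusted p = 0.124, without PRVL32) for Abcb4.

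Rbp7 and Orm3 are genes that fat tissue expresses. Rbp7, a retinol carrier of adipose endothelium, was at 1.57, 1.98, 0.289 and 0.782 RPKM against 9.49, 3.58, 6.55, 4.89 and 2.97 RPKM (log2 fold change -1.58 ± 0.32 SE, adjusted p = 0.0195), a call lost without PRVL32 (adjusted p = 0.0654). Orm3, an acute-phase glycoprotein, was at 2.49, 2.13, 0.838 and 1.64 RPKM against 9.63, 4.27, 7.27, 5.74 and 3.71 RPKM (log2 fold change -1.34 ± 0.26 SE, adjusted p = 0.016), a call lost without PRVL32 (adjusted p = 0.0563). Both were highest in PRVL23 and PRVL25, the libraries with the highest adipocyte level, and lowest in PRVL32, which has the lowest. With the adipocyte level as a covariate the call of Rbp7 was lost (adjusted p = 0.0669) and that of Orm3 held (adjusted p = 0.0487). No adipocyte marker of 9 passed in limma, where 3 had an unadjusted p under 0.05, or with precision weights, and 2 were lower without PRVL24.

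Falls outside the rule for named genes, seen in the values, include Mapk13 (0.558, 0.0265, 2.74 and 0.0624 RPKM against 1.32, 12.5, 7.87, 12.1 and 6.50 RPKM, -2.28, adjusted p = 0.0389) and Col5a3 (23.5, 4.96, 5.46 and 12.9 RPKM against 60.7, 41.9, 34.0, 33.3 and 22.6 RPKM, -1.81, adjusted p = 0.0339). In both, libraries of the groups overlapped, and the calls were lost without 6 of 9 single libraries (highest adjusted p = 0.11, without PRVL31) and 5 of 9 single libraries (highest adjusted p = 0.119, without PRVL32), that of Mapk13 also in 1 fit of all groups together (adjusted p = 0.125). Epn3, an endocytic adaptor, fell without overlap, from 5.72 ± 3.26 to 1.51 ± 0.181 RPKM (log2 fold change -1.31 ± 0.27 SE, adjusted p = 0.0213), and lost its call without PRVL23 (adjusted p = 0.0512), PRVL31 (adjusted p = 0.0585) and PRVL32 (adjusted p = 0.0718). Mapk13 had fallen at 6 weeks too (-3.03, adjusted p = 0.0246).

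Of 16 chromaffin cell markers 3 fell (1.1% of all genes did), among them Scg2 and Slc18a1. All 16 had a negative log2 fold change, with a median of -1.05. Pcsk1, which cuts prohormones in secretory granules, was at 5.12, 1.70, 2.50 and 4.09 RPKM against 7.23, 10.8, 13.1, 8.90 and 7.01 RPKM (log2 fold change -1.30 ± 0.25 SE, adjusted p = 0.0164). In it PRVL31 and PRVL32 were lowest, and PRVL30 and PRVL33 came near the lowest controls. Slc18a1, which loads catecholamines into vesicles, also fell (log2 fold change -1.03 ± 0.24 SE, adjusted p = 0.0355), and Disp2 (-1.18, adjusted p = 0.0154) and Rab3c (-1.11, adjusted p = 0.0219), named for their size, showed the same order of mutant libraries. The calls were lost without 2 of 9 single libraries (highest adjusted p = 0.0768, without PRVL32) for Scg2, 4 of 9 single libraries (highest adjusted p = 0.125, without PRVL32) for Slc18a1, 1 of 9 single libraries (highest adjusted p = 0.0662, without PRVL32) for Pcsk1, 1 of 9 single libraries (highest adjusted p = 0.0621, without PRVL32) for Disp2 and 3 of 9 single libraries (highest adjusted p = 0.0838, without PRVL32) for Rab3c. Th and Pnmt, the first and last enzymes of adrenaline synthesis, were at 339, 96.9, 88.4 and 143 against 217, 365, 534, 801 and 151 RPKM and at 95.2, 61.5, 25.1 and 36.7 against 65.8, 136, 210.4, 422 and 40.6 RPKM and did not pass (-1.28, adjusted p = 0.181, and -1.37, adjusted p = 0.233). Without PRVL24 or without PRVL32 no marker of the list passed, while 11 had an unadjusted p under 0.05 with all libraries.

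The same 16 markers gave 15 calls lower in males at 6 weeks, where 7.19% of all genes were called lower, with a median of -2.76. They gave 16 calls lower in females at 12 weeks, where 10.8% were, with a median of -1.77. In males the list median was -2.76 at 6 weeks and -1.05 at 12 weeks. The interaction passed the test for 4 of the 16, all more positive at 12 weeks (1.53% of 19878 genes were), among them Slc18a1 (difference 1.59, adjusted p = 0.0202). Pcsk1 (difference 1.41, adjusted p = 0.035) and Disp2 (1.25, adjusted p = 0.0415), which are not on that list, behaved likewise. Meg3 and Rtl1, imprinted genes of chromosome 12 that chromaffin cells express and that were chosen after their values were seen, fell too (-1.07, adjusted p = 0.0396, and -0.77, adjusted p = 0.0485), each with overlapping libraries and with its call lost without 7 of 9 single libraries (highest adjusted p = 0.134 and 0.157, both without PRVL32).

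Of 13 endothelial markers 3 rose (0 without PRVL32, 1 without PRVL23), beside 4.2% of all genes. Of the 13 markers 12 had a positive log2 fold change, with a median of 0.43. Plvap, the diaphragm protein of fenestrated capillaries, was at 89.8, 90.7, 107 and 97.9 RPKM against 49.1, 79.4, 41.5, 46.03 and 49.8 RPKM (log2 fold change 0.88 ± 0.17 SE, adjusted p = 0.0161), the control PRVL24 being far above the other controls, and the call was lost without PRVL32 (adjusted p = 0.0672). Esam (0.51, adjusted p = 0.026) and Robo4 (0.42, adjusted p = 0.0331) lost their calls without 4 of 9 single libraries (highest adjusted p = 0.0947, without PRVL32) and 6 of 9 single libraries (highest adjusted p = 0.129, without PRVL32), and Pecam1 did not pass (0.43, adjusted p = 0.0932). Pdgfrb, a receptor of pericytes and fibroblasts, was at 26.5, 31.9, 29.8 and 24.5 RPKM against 17.7, 17.1, 18.7, 14.2 and 14.8 RPKM (log2 fold change 0.74 ± 0.11 SE, adjusted p = 0.0048) and kept its call without any single library, unlike Myh11 of smooth muscle (0.65, adjusted p = 0.0377), lost without 6 of 9 single libraries (highest adjusted p = 0.123, without PRVL32) and in 1 fit of all groups together (adjusted p = 0.0837). In limma no marker of the capsule and fibroblasts passed of 13 (2 with an unadjusted p under 0.05, 0 with precision weights), and none of neurons and Schwann cells of 10 (2, and 0). Col1a1 ranged from 5.26 to 27.6 RPKM in Znrf3 cKO alone.

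In limma no cell cycle gene of 20 passed (3 with an unadjusted p under 0.05, 0 with precision weights, 1 without PRVL28, PRVL29, PRVL30 or PRVL33), the list median was 0.00068, and Mki67 was at 1.17, 1.08, 0.842 and 0.539 RPKM against 1.21, 0.967, 1.45, 1.15 and 1.19 RPKM (log2 fold change -0.21 ± 0.12 SE, adjusted p = 0.322). Of 15 cell cycle inhibitors and senescence genes 1 rose, beside 4.2% of all genes. This was Cdkn1c, an imprinted inhibitor that cortical cells express, at 76.2, 82.2, 78.6 and 28.1 RPKM against 25.4, 19.1, 17.1, 12.1 and 13.5 RPKM (log2 fold change 1.80 ± 0.32 SE, adjusted p = 0.0114). PRVL33 lay close to the highest control while the other 3 mutant libraries clustered together. Cdkn1a (p21) was at 9.63, 9.03, 8.54 and 10.7 RPKM against 8.17, 5.44, 7.60, 8.80 and 3.84 RPKM (log2 fold change 0.47 ± 0.19 SE, adjusted p = 0.183) and Cdkn2a was under 1 RPKM in all libraries (0.09, adjusted p = 0.702).

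Of 13 WNT targets and feedback genes only Znrf3 itself passed. Axin2, the common readout of the pathway, was at 11.9, 12.9, 15.5 and 10.998 RPKM against 9.84, 10.9, 13.0, 7.93 and 11.2 RPKM (log2 fold change 0.26 ± 0.14 SE, adjusted p = 0.292), and Rnf43, the relative of Znrf3, at 1.25 against 1.22 RPKM (0.01, adjusted p = 0.964). Lgr5, the R-spondin receptor, was at 1.55, 1.05, 1.67 and 2.19 RPKM against 4.11, 4.57, 5.59, 1.68 and 3.48 RPKM and did not pass (log2 fold change -0.86 ± 0.24 SE, adjusted p = 0.0673), with the control PRVL28 within the range of the mutants. At 6 weeks Axin2 had risen in male Znrf3 cKO (0.52, adjusted p = 0.0111) and Lgr5 had fallen (-1.86, adjusted p = 0.000227), but neither passed the test of the difference between the ages (adjusted p = 0.512 for Axin2 and 0.108 for Lgr5). In limma no WNT ligand or receptor gene of 19 passed (3 with an unadjusted p under 0.05, 0 with precision weights).

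Of 7 glutathione transferases of the mu class 3 rose, beside 4.2% of all genes, and this family was looked up after the value of Gstm1 was seen. Gstm1 was at 474, 552, 540.5 and 489.9 RPKM against 261, 296, 266, 269 and 333 RPKM (log2 fold change 0.85 ± 0.11 SE, adjusted p = 0.0027). Gstm2 was at 237, 313, 317 and 289.9 RPKM against 116, 157, 141, 147 and 163 RPKM (log2 fold change 0.99 ± 0.13 SE, adjusted p = 0.00283), and Gstm3 rose as well (log2 fold change 0.96 ± 0.14 SE, adjusted p = 0.00384). Here the mutant libraries lay close together, PRVL33 included, and the 3 calls held without any single library. The same 3 genes were called higher in males at 6 weeks, where 2.81% of all genes were (log2 fold changes 0.85, 0.57 and 0.78) and in females at 12 weeks, where 15.6% were (1.02, 0.35 and 0.79). Shares of 18.9%, 5.70% and 28.8% of their windows occur in another gene. The other 16 of 17 antioxidant genes did not pass, and neither did the 25 genes of oxidative phosphorylation (median -0.09, 4 with an unadjusted p under 0.05 in limma, 0 called with precision weights, 1 lower without PRVL29).

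The remaining lists added few calls, beside 4.2% of all genes higher and 1.1% lower. Of 18 matrix genes and matrix enzymes 4 rose (1 without PRVL32), Mmp12, Spp1 (2.69, adjusted p = 0.0144), Tgfb1 (0.67, adjusted p = 0.0355) and Mmp14 (0.58, adjusted p = 0.0486). Of 12 stress and immediate early genes only Atf3 rose, while the list median was 0.84 and Fos (1.34, adjusted p = 0.23) and Junb (1.55, adjusted p = 0.0906) did not pass, a pair named after their values were seen. The mean log2(RPKM + 1) of the list was 4.43 to 5.33 in Znrf3 cKO and 3.69 to 4.39 in controls, without overlap. Of 11 osteoclast and cell fusion genes 4 rose, among them Adam8 (2.53, adjusted p = 0.000995) and Sirpa (1.37, adjusted p = 0.00243). The calls of Spp1, Tgfb1 and Mmp14 were lost without 1 of 9 single libraries (highest adjusted p = 0.0582, without PRVL32), 7 of 9 single libraries (highest adjusted p = 0.129, without PRVL32) and 7 of 9 single libraries (highest adjusted p = 0.163, without PRVL32), and that of Itgax, named next, without 4 of 9 single libraries (highest adjusted p = 0.0973, without PRVL32). Of 17 LXR and PPAR targets 3 rose, Nr1h3 (0.65, adjusted p = 0.00712), Abcg1 and Pltp (1.89, adjusted p = 0.00972). Hk3 was the only call among 15 genes of glycolysis, Itgax (1.35, adjusted p = 0.0277) among 4 dendritic cell markers, and Abcb1b among 6 of the zona fasciculata and inner cortex. None of 5 red blood cell genes (0 with an unadjusted p under 0.05) and none of the 1 kidney and liver marker tested (0) passed in limma, or with precision weights.

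The knockout effect at 12 weeks was set against that in males at 6 weeks and in females at 12 weeks, 4 Znrf3 cKO against 4 control libraries each, through interaction terms. Both comparisons use the same 9 libraries of 12-week males, so they are not independent. Against 6 weeks 304 genes had a more positive effect (1.53% of 19878) and 124 a more negative one (0.624%). Against females 790 were more positive (3.88% of 20361) and 323 more negative (1.59%). Of the 807 genes called higher, 112 were more positive than at 6 weeks and 517 more positive than in females. These genes were chosen on the 9 libraries that form 1 arm of both tests, so such counts are a description of them. Of the 211 called lower, 29 were more negative and 17 more positive than at 6 weeks, and 37 and 1 against females. The count against 6 weeks moved between 143 (without PRVL32) and 653 (without PRVL33), and that against females between 662 (without PRVL32) and 1392 (without PRVL29). The Znrf3 cKO library PRVL3 at 6 weeks held only 11.1 M reads. In females the Znrf3 cKO library PRVL70 held 23.6 M reads, against 44.6 to 50.9 M in the other mutants. Its top 10 genes held 33.3% of its RPKM, against 18.3% to 20.3% in those.

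Few of the rises were already called at 6 weeks. Of 740 genes called higher at 12 weeks and tested at 6 weeks, 60 were also higher (8.11%, where 2.84% of the genes tested at both ages were), and these were 11.4% of the genes higher at 6 weeks. Of the falls, 117 of 211 were also lower at 6 weeks (55.5%, background 7.23%), which is 8.73% of the genes lower at 6 weeks. Among these 117 the median log2 fold change was -0.73 at 12 weeks and -1.14 at 6 weeks, and 109 lay nearer to 0 at 12 weeks.

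The 15 genes with the largest rises had differences from 6 weeks that did not pass the test (adjusted p from 0.0545 to 0.453). Lgals3 (2.71, adjusted p = 0.0426) and Anxa1 (1.67, adjusted p = 0.00158) were already called higher at 6 weeks, and the others were not. Ear2 came nearest to a difference (2.06, adjusted p = 0.0545), with 1.95 ± 1.89 RPKM in Znrf3 cKO at 6 weeks against 18.3 ± 10.48 at 12 weeks. Of the 15 largest falls, chosen on the same libraries, 8 differed from 6 weeks, where 0.624% of all genes were more negative and 1.53% more positive. Mgst2 was at 9.63 ± 2.11 against 8.60 ± 2.43 RPKM at 6 weeks (difference -1.86, adjusted p = 0.0255), and Ackr3 at 35.7 ± 14.9 against 32.0 ± 9.51 RPKM (difference -1.56, adjusted p = 0.0459). Sbsn (-2.08, adjusted p = 0.031), Abcb1a (-1.66, adjusted p = 0.0293) and Abcb1b (-1.76, adjusted p = 0.0319) differed as well. Abcb4, which is not among the 15, had a difference of -1.29 (adjusted p = 0.031). None of these genes was called at 6 weeks. Others of the 8 had fallen further at 6 weeks, among them Pcsk1 (difference 1.41, adjusted p = 0.035) and Disp2 (difference 1.25, adjusted p = 0.0415).

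All 15 largest rises, which were chosen for their change in these males, differed from females (adjusted p from 8.8e-05 to 0.00493), where 3.88% of all genes were more positive, and this too is a description. Mmp12 was at 1.12 ± 0.401 against 1.59 ± 0.386 RPKM in females (difference 4.92, adjusted p = 0.000409), and Lgals3 at 10.7 ± 3.11 against 6.69 ± 2.14 RPKM (difference 3.91, adjusted p = 0.000378). Of 706 genes called higher in males and tested in females, 115 were also higher there (16.3%), close to the 15.8% of all genes tested in both, and 38 were lower (5.38%). Of the lower genes 108 of 199 were also lower in females (54.3%, background 11.4%), which is 5.30% of the genes lower there. Among the falls, Mgst2 and Adh7 turned the other way in females, rising from 12.4 ± 3.14 to 35.6 ± 7.26 RPKM (1.46, adjusted p = 0.00287, difference -3.17, adjusted p = 0.000409) and from 21.9 ± 4.11 to 72.4 ± 17.8 RPKM (1.67, adjusted p = 0.00214, difference -2.77, adjusted p = 0.000119). Adh1 did so as well (0.65, adjusted p = 0.00525, difference -2.42, adjusted p = 0.00493). Aldh1a1 showed the reverse pattern, higher in male and lower in female Znrf3 cKO (-0.91, adjusted p = 0.0174, difference 2.25, adjusted p = 0.00622).

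**Figure D5:**
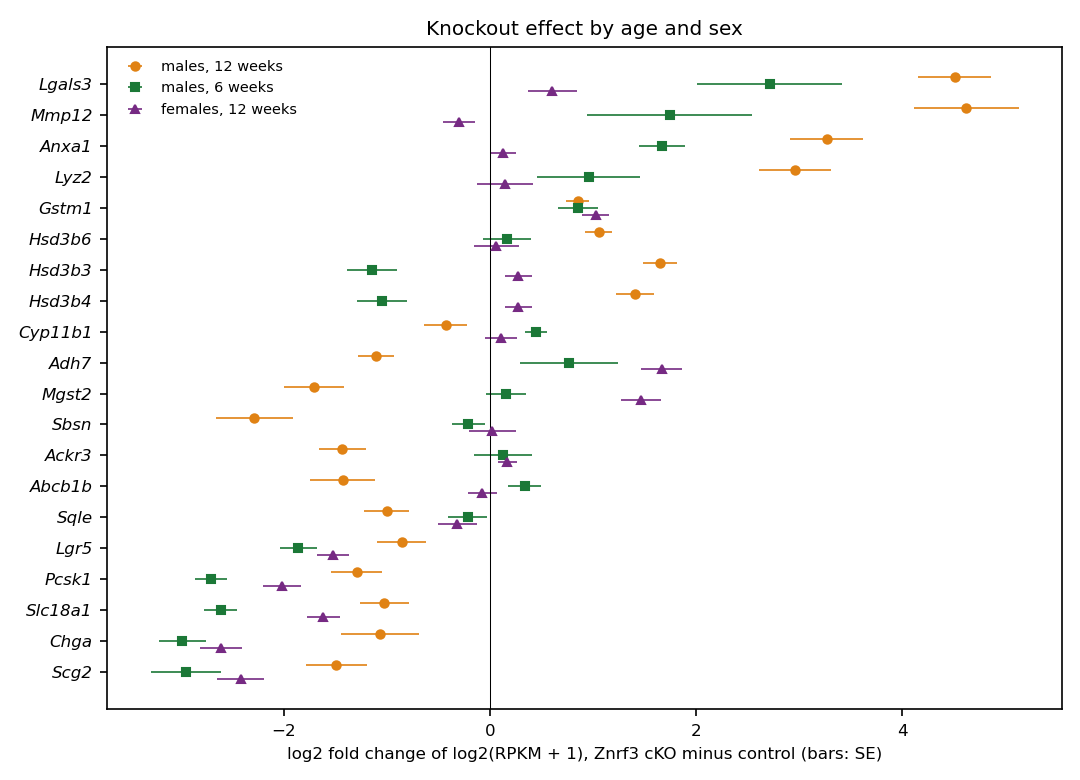
Points with bars are the log2 fold changes (Znrf3 cKO minus control) ± SE of 20 named genes in males at 12 weeks, males at 6 weeks and females at 12 weeks, with the genes on the y axis and the fold change on the x axis. Mmp12, Lgals3, Anxa1 and Lyz2 lie farther right in 12-week males than in females, and Mgst2 and Adh7 lie left of 0 in these and right of 0 in females.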

How the data were processed

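RNA of whole adrenals was sequenced with stranded poly(A) libraries. The authors trimmed reads with cutadapt (version 3.2), checked them with FastQC (version 0.11.7), aligned them to mm10 with HISAT2 (version 2.2.1), counted genes, and deposited RPKM values for 54838 genes. The deposited RPKM were taken as scaled by the median of ratios within each sex and age, which was not tested here. Reads were recovered from the steps of the values. With gene lengths of GENCODE M21 and a tolerance of 0.02, 98.2% to 98.6% of the values of the 9 libraries were whole reads. The authors' own tests used DESeq2 (version 1.34.0) on counts not used here. The 37 mitochondrial genes are at 0 in every column, 15 symbols had turned into dates, and 203 genes share a symbol. The 4 columns of 78 weeks that duplicate others entered no fit.

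Groups came from the sample labels. Genes whose mean reached 0.5 RPKM in 1 group or more were tested with limma (version 3.58.1, R 4.3.3) with a trend on log2(RPKM + 1), two-sided, with Benjamini-Hochberg adjustment over all genes tested and a threshold of 0.05. Fold changes on this scale understate the change of low genes. The same model with an interaction compared the knockout effect with that at 6 weeks and in females. Scripts were tested on simulated data, where the interaction tests missed most differences of 1 in log2. In each comparison the share of false calls there lay above the threshold. Sequences, lists and plots were handled in Python 3.11.15 with pandas 2.3.3, numpy 2.4.6 and matplotlib 3.10.9.

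Named genes were Znrf3, a fixed set of adrenal genes, up to 4 called members of each list with the smallest p, a list's lowest or highest member, and the largest 15 rises and largest 15 falls of called genes whose higher group averaged 5 RPKM or more and whose libraries did not overlap, leaving out predicted genes. Any other gene or list member was named after its value was seen, and some genes that the rule selects are not reported here. Members and lists were chosen with earlier results of these data known. Alternatives tried were another pseudocount (0.1), testing every gene above 0, a fold minimum (1 in log2), a joint fit of all groups, library weights, rescaling to equal sums, weighting recovered reads by their precision, each library left out in turn and, chosen after seeing the data, the adipocyte or chromaffin level as a covariate. Promoter sequences were those of RefSeq, from 250 bases before to 50 after each gene start.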

Additional observations from a re-analysis of the deposited data

Results flagged for a closer look

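Single libraries stood far from the rest of their group in 12 of 204 groups examined (102 genes in 2 groups each, 5.9%), where chance alone marks about 1 in 20. Among controls, PRVL25 was high for Cd5l (11.2 RPKM), Cd4 (1.11) and Dhrs3 (13.8), PRVL28 for Sqle (11.7), PRVL24 for Plvap (79.4) and PRVL29 for Gstm3 (18.7). Among Znrf3 cKO libraries, PRVL30 was high for Sbsn (25.2 RPKM) and Lss (3.11), PRVL31 for Cyp11b2 (514) and PRVL33 for Hsd3b3 (13.5). PRVL33 was low for Mitf (1.80 RPKM) and Cdkn1c (28.1).

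For 14 of the 102 named genes the knockout effect at 12 weeks differed from that at 6 weeks in males, by the interaction in limma, where 1.53% of all genes were more positive and 0.624% more negative. Many of the 102 were chosen for their change in these males, so this count and the next are descriptions. The log2 difference (12 weeks minus 6 weeks) was negative for the transporters Abcb1a (-1.66), Abcb1b (-1.76) and Abcb4 (-1.29), for Sbsn (-2.08), Mgst2 (-1.86) and Ackr3 (-1.56), and for the cholesterol synthesis gene Lss (-0.75). It was positive for Hsd3b2 (1.63), Hsd3b3 (2.79) and Hsd3b4 (2.46), for the neuroendocrine genes Pcsk1 (1.41), Disp2 (1.25) and Slc18a1 (1.59), and for the heme enzyme Blvrb (0.94).

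For 54 of them it differed from that in females at 12 weeks (3.88% of all genes were more positive and 1.59% more negative), and here the log2 difference is males minus females. Among macrophage and lipid genes it was 6.81 for Gpnmb, 5.05 for Atp6v0d2, 4.92 for Mmp12, 4.39 for Cd5l, 3.91 for Lgals3, 3.45 for Fabp5, 3.15 for Cd68, 3.14 for Anxa1 and 3.12 for Atf3. It was 3.16 for Lyz1, 2.81 for Lyz2, 3.08 for Clec4d, 3.03 for Anpep, 2.95 for Ear2, 2.79 for Trem2, 2.78 for Hk3 and 1.72 for Abcg1. Among immune receptors and ligands it was 2.88 for Clec7a, 1.77 for Fcer1g, 1.96 for Csf2rb, 2.39 for Csf2rb2, 1.26 for C1qb, 1.59 for Ccl6 and 0.76 for Cx3cl1, and among lymphocyte genes 0.70 for Lck, 1.34 for Cd4 and 1.01 for Nkg7.

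Lysosomal genes were also more positive in males, with 1.73 for Ctsd, 0.77 for Ctsa, 1.09 for Ctsz, 1.36 for Psap, 0.98 for Gusb, 0.75 for Npc2, 1.67 for Slc11a1, 0.76 for Tfec, 1.51 for Gpr137b and 1.29 for Fnip2. Steroid and redox genes followed with 0.97 for Hsd3b2, 1.37 for Hsd3b3, 1.14 for Hsd3b4, 0.99 for Hsd3b6, 0.75 for Blvra, 0.92 for Blvrb, 0.64 for Gstm2 and 2.25 for Aldh1a1. Pdgfrb differed by 0.85 and Cdkn1c by 1.79. The difference was negative for Mgst2 (-3.17), Adh7 (-2.77), Adh1 (-2.42), Sbsn (-2.31), Ackr3 (-1.60), Abcb1a (-1.26) and Abcb4 (-1.05).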

How the results depend on the processing

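Counts of called genes depended on the settings, while 0 of the 122 called genes under the rule for named genes or added to it reversed direction. Genes that were not called could change sign, such as Hsd3b1, which ran from -0.066 to 0.0996 with single libraries left out. The cause of each shift was not tested. Against 807 genes higher and 211 lower, no filter on low values gave 518 and 66, 1 fit over all groups 1245 and 772, library weights 2628 and 1485, a fold minimum (1 in log2) 287 and 36, the adipocyte level as a covariate 282 and 10, and the chromaffin level 46 and 0 (limma, 1187 lower at an unadjusted p under 0.05), the last 2 chosen after seeing the data. Precision weights gave 323 lower. Leaving out 1 library at a time, the higher genes ran from 351 (without PRVL32) to 1743 (without PRVL28) and the lower ones from 23 to 616 (the same libraries). They were 512 and 90 without PRVL23, 481 and 70 without PRVL24, and 488 and 64 without PRVL31, and the lower ones were 137 without PRVL33.

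Against 428 genes whose effect differed from 6 weeks, no filter gave 132, 1 fit 745, library weights 2569, rescaling to a common sum 236 and that fold minimum 218. Single libraries left out gave 143 (without PRVL32) to 653 (without PRVL33). Against 1113 that differed from females, 1 fit gave 624, library weights 2319, rescaling 721 (661 more positive and 60 more negative in males, against 790 and 323) and the fold minimum 396. Single libraries left out gave 662 (without PRVL32) to 1392 (without PRVL29).

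Of 122 called genes under the rule for named genes or added to it, 58 lost the call with the adipocyte level as a covariate, 109 with the chromaffin level, 44 with no filter, 14 in 1 fit, 12 after rescaling, 1 with library weights, 1 with a pseudocount of 0.1 and 0 with precision weights. Rescaling moved the median log2 fold change of all genes by -0.05. No paired analysis was possible because the labels give the groups no shared replicate numbers. Depth limits genes of low level most in PRVL23, which held 18.4 M reads. With 4 against 5 libraries of whole adrenals, cell number and RNA per cell cannot be told apart, and adipocyte and chromaffin levels move with the groups.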
